A study of Rattus norvegicus with 23 samples.

Results

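The miRNA table of a rat sperm small RNA study held 425 rows, and 4 of them came from the 2 genes that lie inside Hox clusters and give miR-10: the 5p and 3p arms of miR-10a and the 5p and 3p arms of miR-10b. They were taken by name, and all 4 of 4 passed the filter on low values (above 0 in at least 8 of 23 libraries). The members, and the lists they are compared with, were chosen with earlier results of these data known. The p-values of the correlations below do not allow for that choice. The libraries were made from sperm of the cauda epididymis, 1 for each of 23 male Long-Evans rats. Of these, 7 had breathed filtered air, 8 had breathed 0.4 ppm ozone and 8 had breathed 0.8 ppm ozone, an oxidant air pollutant. Every rat spent 4 h in the chamber on each of 5 occasions, 3 in week 1 and 2 in week 2. The labels give 7 air libraries where the design text names 8 rats a group. Each library is 1 animal, so p-values measure the spread between animals. How pure the sperm were, and whether other cells were removed before lysis, is stated nowhere in the sources used here.

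The 5p arm of miR-10a was among the most abundant miRNAs of every library and varied 7.19-fold between animals. The other 3 arms were far lower. None of the 4 arms was separated by ozone dose from air. Across animals, miR-10a-5p was high where miR-99b, miR-100 and miR-125a were high, and low where the germ cell miR-34/miR-449 group and a leucine tRNA share were high. The let-7 sum and a list led by miR-143-3p rose with it too, at r of 0.770 and 0.722. Without the highest miR-10a-5p library of each group, no such relation passed by rank.

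A miRNA is cut from a hairpin precursor, and the 5p or 3p arm that is loaded into an Argonaute protein pairs with messenger RNAs mainly through its seed, bases 2 to 8. The miR-10 genes are conserved parts of the Hox clusters, which set position along the body axis, and in many vertebrates they are transcribed with the neighbouring Hox genes. In adults, miR-10a and miR-10b are known from smooth muscle, endothelium and several tumours. In the RefSeq annotation, Mir10a lies on chromosome 10 between Hoxb5 and Hoxb4. Mir10b lies on chromosome 3 within the span of Hoxd4, between Hoxd8 and Hoxd3. The table of longer transcripts held 617 rows, of which 0 were Hox genes, so host transcripts were not measured here.

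The sequences below show why the 2 genes are hard to tell apart by their 5p arms and easy to tell apart by their 3p arms. They are RefSeq rat entries on build GRCr8, written 5′ to 3′, with the seed in capitals, and all 4 of 4 members were matched by name.
miR-10a-5p: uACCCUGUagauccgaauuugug
miR-10b-5p: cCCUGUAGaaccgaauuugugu
miR-10a-3p: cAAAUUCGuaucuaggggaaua
miR-10b-3p: aCAGAUUCgauucuaggggaa
The stretch of the miR-10b hairpin that lines up with miR-10a-5p is given next, with the base that differs in capitals.
miR-10b hairpin stretch: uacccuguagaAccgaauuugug
The miR-10a arms lie on the plus strand at chr10:81779730-81779752 for the 5p arm and chr10:81779771-81779792 for the 3p arm. The miR-10b arms lie on the plus strand at chr3:80035886-80035907 for the 5p arm and chr3:80035923-80035943 for the 3p arm. The hairpin stretch spans chr3:80035884-80035906. Against miR-10a-5p it has 1 difference, U12A, counted from the 5′ end of miR-10a-5p. The listed rat miR-10b-5p starts 2 bases later than miR-10a-5p does in this alignment. Its bases 2 to 8 therefore read CCUGUAG where those of miR-10a-5p read ACCCUGU, and the differing base falls at its position 10. The 3p arms share a longest run of 10 bases. How a read with a mismatch was assigned is stated nowhere in these sources. Values of miR-10a-5p and miR-10b-5p are therefore uncertain as a split of near-identical copies.

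A second set of sequences shows the related guides to which the miR-10 levels are compared below. The miR-99 and miR-100 guides share a seed, and the miR-125 guides share another. Both differ from the miR-10a-5p seed.
miR-99b-5p: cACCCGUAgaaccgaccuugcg
miR-100-5p: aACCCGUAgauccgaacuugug
miR-125a-5p: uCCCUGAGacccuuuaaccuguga
miR-125b-5p: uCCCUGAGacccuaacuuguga
These lie at chr1:67350070-67350091, chr8:50798307-50798328, chr1:67350689-67350712 and chr11:29732588-29732609, in that order, all on the plus strand of GRCr8.

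The deposited values are read signals scaled between libraries by the authors, and they returned whole reads for each library. Recovered miRNA reads numbered 213839 in the shallowest library, 628271 in the median one and 1286612 in the deepest. Levels below are the deposited normalised values unless reads or shares of the miRNA table are named. The guides compared differ little in length, with the miR-10 arms at 21 to 23 bases.

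miR-10a-5p, the guide arm of miR-10a, ranked between 2nd and 16th of the miRNAs in each library and 5th by its mean. In the 7 air libraries the lowest value was 11622, the median 12902 and the highest 49511. At 0.4 ppm the values ran from 13433 through a median of 25535 to 71043. At 0.8 ppm they ran from 9878 through a median of 16608 to 53831. The 3 groups overlapped over most of their range, and in each group 1 library stood well above the rest. These were air replicate 6, 0.4 ppm replicate 5 and 0.8 ppm replicate 7. As a share of the miRNA table the 0.4 ppm gap was smaller, at 9.70% in replicate 5 and 8.30% in replicate 6. The fold between the highest and lowest library was 4.26 within air, 5.29 within 0.4 ppm and 5.45 within 0.8 ppm.

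As a share of the recovered miRNA reads, miR-10a-5p averaged 3.88% ± 2.34 (SD, n = 23). The highest share was 9.70% in 0.4 ppm replicate 5, with a 95% Wilson interval of 9.60% to 9.81%. The lowest was 1.45% in 0.8 ppm replicate 4, with an interval of 1.43% to 1.47%. These intervals cover counting error only, since the reads carry no molecular identifiers in the files. Each library held 10617 to 43637 reads of miR-10a-5p. Counting alone gives an SD of 0.0099 in log2(value + 1) when every animal of a group has the group's mean level, against an SD of 0.77 between animals around their group means. Among the 51 miRNAs with a mean value of at least 1000, that spread was the second widest, after let-7b-5p at 0.89 and before miR-99b-5p at 0.71, where the median was 0.44. Over all 407 tested miRNAs, low ones included, it ranked 140th, where the median was 0.66.

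miR-10a-3p, the opposite arm of the same hairpin, was measured at 7 to 58 reads a library with a median of 26. Its lowest, median and highest values were 14.8, 22.0 and 26.3 in air. They were 13.6, 27.1 and 50.7 at 0.4 ppm and 14.8, 21.5 and 40.7 at 0.8 ppm. The groups overlapped, and its spread between animals, an SD of 0.48 on the log2 scale, stood above the 0.31 that counting gives at this depth. The library with the most miR-10a-5p, 0.4 ppm replicate 5, had 27.9 for miR-10a-3p, close to the median of its group.

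miR-10b-5p, the guide arm of miR-10b, was found at 2 to 20 reads a library with a median of 7. Its lowest, median and highest values were 2.81, 4.76 and 23.7 in air. They were 3.52, 8.50 and 25.3 at 0.4 ppm and 2.74, 4.82 and 18.2 at 0.8 ppm. The groups overlapped, and the highest library of each group was the one that was highest for miR-10a-5p. The SD between animals was 0.88 on the log2 scale, where counting gives 0.52.

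miR-10b-3p, the opposite arm, had 0 to 7 reads a library with a median of 2. Its lowest, median and highest values were 0.793, 2.04 and 3.39 in air. They were 0, 2.86 and 9.72 at 0.4 ppm and 0, 1.36 and 9.58 at 0.8 ppm. It was at 0 in 2 libraries at 0.4 ppm, replicates 1 and 5, which allows shares of up to 0.000714% and 0.00104%, and in 1 library at 0.8 ppm, replicate 1, which allows up to 0.000347%. Its SD was 0.98 on the log2(value + 1) scale, where counting gives 0.75.

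**Figure D1:**
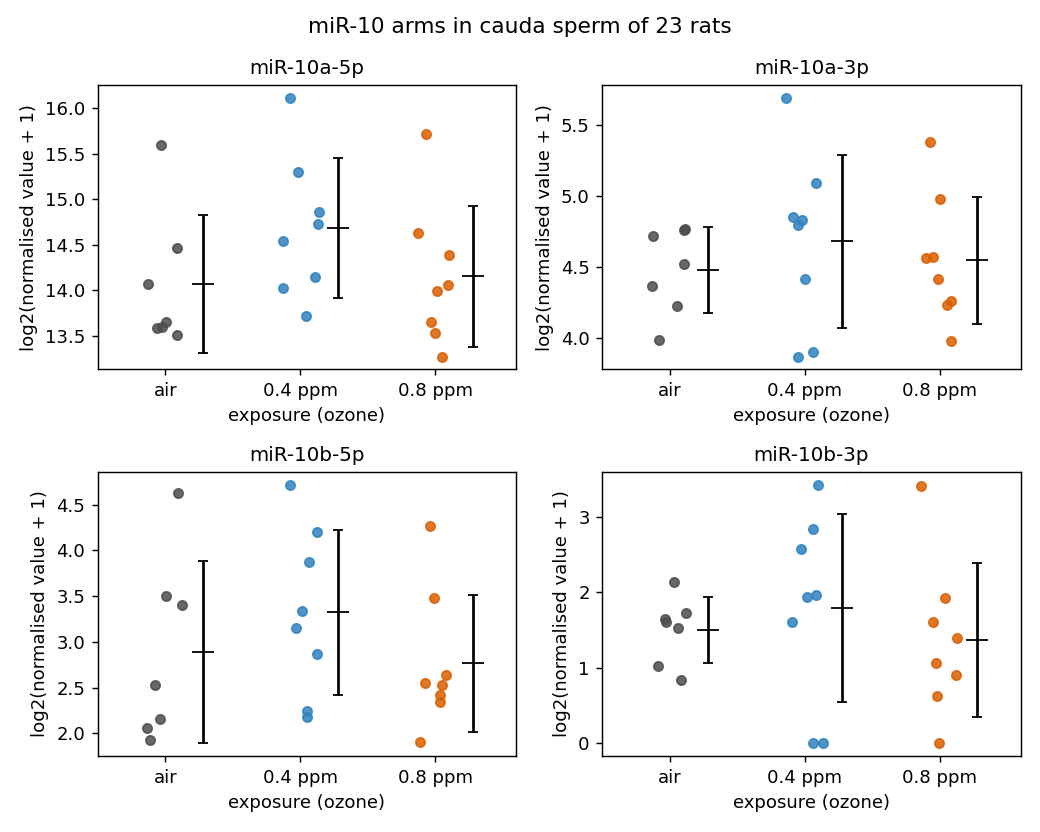
Normalised level of each miR-10 arm as log2(value + 1), 1 point per rat, by exposure (air, n = 7; 0.4 ppm, n = 8; 0.8 ppm, n = 8); the tick is the group mean and the bar 1 SD. The groups overlap for every arm, and the top miR-10a-5p libraries have unlogged values of 49511 in air, 71043 at 0.4 ppm and 53831 at 0.8 ppm.

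The study asked whether ozone changes the noncoding RNA that sperm carry. In the limma fit over all 407 miRNAs, 0 of the 4 miR-10 arms passed an adjusted p of 0.05 in each of the 3 contrasts. The background was the same: 0% of the tested miRNAs passed at 0.4 ppm against air, 0% at 0.8 ppm against air and 0% at 0.8 ppm against 0.4 ppm. At an unadjusted p under 0.05, limma had 22, 9 and 15 of the 407 miRNAs in these contrasts, edgeR 26, 15 and 18, and DESeq2 31, 18 and 25, and both count tools also called 0 after adjustment. In this fit none of the 4 arms had an unadjusted p under 0.05. Of 414 values of the arms under other settings 6 did, 5 of them for miR-10a-5p and 1 for miR-10b-3p, and the smallest was 0.00997, for miR-10a-5p at 0.4 ppm against air without air replicate 6 (limma adjusted p of 0.527).

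miR-10a-5p averaged 30061 ± 18645 at 0.4 ppm (SD, n = 8) and 19778 ± 13685 in air (SD, n = 7). The log2 fold change was 0.61 ± 0.36 (SE), with a 95% interval of -0.12 to 1.35 and a limma adjusted p of 0.802. It averaged 21064 ± 14195 at 0.8 ppm (SD, n = 8), and against air its log2 fold change was 0.09 ± 0.36, with an interval of -0.64 to 0.82 and a limma adjusted p of 0.993. Between the doses, 0.8 ppm against 0.4 ppm, the log2 fold change was -0.53 ± 0.34, with an interval of -1.23 to 0.18 and a limma adjusted p of 0.729. The means thus did not follow the dose, and each difference was smaller than the spread within a group. The value at 0.4 ppm against air ran from 0.41 without 0.4 ppm replicate 5 to 0.87 without air replicate 6, and between the doses from -0.75 without 0.8 ppm replicate 7 to -0.32 without 0.4 ppm replicate 5. With read depth as a covariate the value at 0.4 ppm against air was 0.37, and with the summed miR-34/miR-449 level as a covariate -0.04.

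For the 3 low arms the intervals were wide. At 0.4 ppm against air, the log2 fold change was 0.20 ± 0.27 (SE) for miR-10a-3p, 0.44 ± 0.43 for miR-10b-5p and 0.29 ± 0.48 for miR-10b-3p, with limma adjusted p of 0.92, 0.89 and 0.92. At 0.8 ppm against air, the log2 fold change was 0.07 ± 0.27 for miR-10a-3p, -0.12 ± 0.43 for miR-10b-5p and -0.13 ± 0.48 for miR-10b-3p, each with a limma adjusted p of 0.993. Between the doses, 0.8 ppm against 0.4 ppm, the 3 arms stood at -0.13 ± 0.26, -0.56 ± 0.41 and -0.43 ± 0.47, in the same order, and the smallest limma adjusted p was 0.795. The 95% intervals for miR-10b-5p were -0.44 to 1.31 at 0.4 ppm and -0.99 to 0.75 at 0.8 ppm. For miR-10b-3p the count tools gave larger values, 0.95 by edgeR and 1.0 by DESeq2 at 0.4 ppm against air, and -1.13 and -1.09 at 0.8 ppm against 0.4 ppm, with adjusted p of 0.653 or more. With read depth as a covariate the values at 0.4 ppm against air were 0.20 for miR-10b-5p and 0.097 for miR-10b-3p. The contrasts with air share the same 7 air libraries. The medians over all 407 miRNAs were -0.02, 0.01 and 0.02 in the 3 contrasts.

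**Figure D2:**
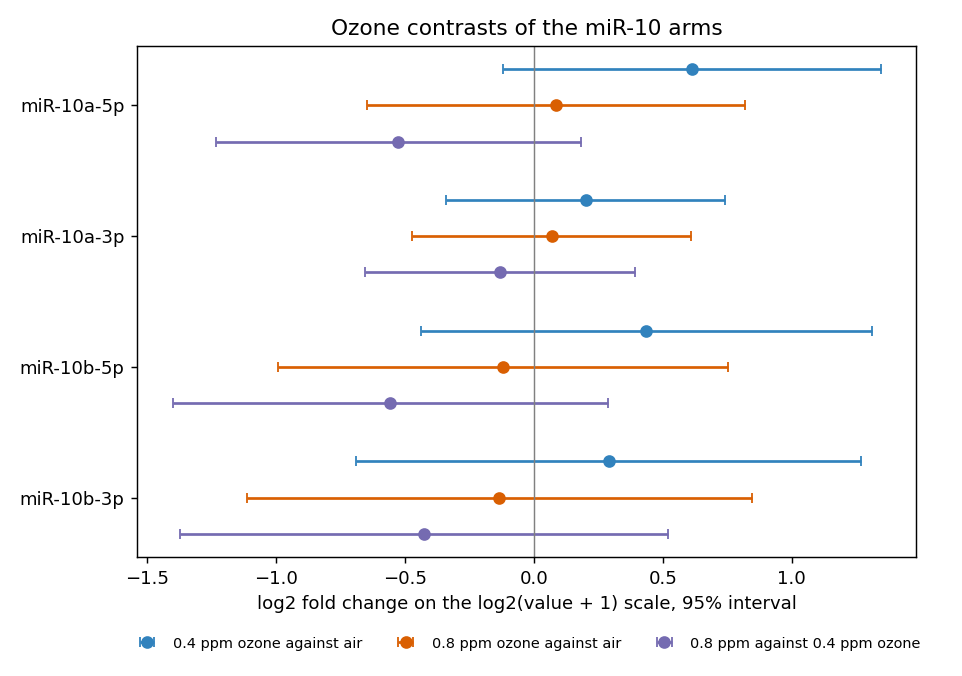
Log2 fold change of each miR-10 arm with its 95% interval from the limma fit, for 0.4 ppm against air, 0.8 ppm against air and 0.8 ppm against 0.4 ppm. Every interval spans 0, and the widest distance from 0 is 0.61 for miR-10a-5p at 0.4 ppm.

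The related guides with a miR-10-like seed region, miR-99a, miR-99b, miR-100, miR-125a and miR-125b, were all measured, and 0 of 5 passed in each contrast. At 0.4 ppm against air 5 of 5 had a positive log2 fold change with a median of 0.39, beside -0.02 over all miRNAs. Other lists shifted at 0.4 ppm against air too, with 0 members called in each: the epithelial miR-200 arms were positive in 8 of 8 with a median of 0.53, muscle and stroma arms in 5 of 5 with a median of 0.36, and the germ cell miR-34/miR-449 arms in 0 of 5 with a median of -0.40. At 0.8 ppm against air 5 of 5 related guides were positive with a median of 0.24, and at 0.8 ppm against 0.4 ppm 1 of 5 was positive with a median of -0.13. The most abundant, miR-99b-5p, averaged 1644 ± 959 at 0.4 ppm (SD, n = 8) and 1235 ± 583 in air (SD, n = 7), a log2 fold change of 0.34 ± 0.32. At 0.8 ppm it averaged 1502 ± 914 (SD, n = 8), a log2 fold change against air of 0.24 ± 0.32. miR-125b-5p, the lowest of them, had the largest value of the list, a log2 fold change of 0.59 ± 0.26 at 0.8 ppm against air, with a limma adjusted p of 0.993. At 0.4 ppm against air, miR-100-5p had 0.52 ± 0.28, miR-99a-5p 0.39 ± 0.21 and miR-125a-5p 0.39 ± 0.25.

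Of 7 other miRNAs encoded in the Hox clusters, 4 were in the table: miR-196a-5p, miR-196b-5p, miR-196c-5p and miR-615. They were much lower than miR-10a-5p, and 0 of 4 passed in each contrast. Their median log2 fold change was 0.14 at 0.4 ppm against air, -0.02 at 0.8 ppm against air and -0.20 at 0.8 ppm against 0.4 ppm. miR-196a-5p averaged 103 ± 28.6 in air, 128 ± 90.5 at 0.4 ppm and 97.9 ± 35.5 at 0.8 ppm (SD). miR-196b-5p averaged 45.3 ± 12.5 in air, 53.1 ± 28.6 at 0.4 ppm and 61.7 ± 71.0 at 0.8 ppm. miR-196c-5p and miR-615 averaged 1.32 to 2.36 and 1.55 to 2.13 over the groups. Over all 23 libraries the mean was 110 for miR-196a-5p and 23802 for miR-10a-5p.

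Within a library the reads of the arms can be compared with no scaling between libraries. Over all libraries, 517789 reads were assigned to miR-10a-5p, 617 to miR-10a-3p, 182 to miR-10b-5p and 57 to miR-10b-3p. The 5p arms of miR-10a and miR-10b thus stood at 2845 to 1, and their 3p arms at 10.8 to 1. The 5p arm exceeded the 3p arm by 839-fold for miR-10a and by 3.19-fold for miR-10b. The part that the read assignment between the near-identical 5p arms has in these ratios was not tested.

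The 5p over 3p ratio of miR-10a, as log2 of the ratio of (value + 1), averaged 9.59 ± 0.71 in the 7 air libraries (mean ± SD), 10.00 ± 1.0 in the 8 at 0.4 ppm and 9.61 ± 0.76 in the 8 at 0.8 ppm. As a fold it ran from 462 to 2802 across libraries, with a median of 682. The ratio of miR-10b averaged 1.39 ± 0.88 in air, 1.53 ± 1.70 at 0.4 ppm and 1.40 ± 1.28 at 0.8 ppm. With 1 added to scaled values, ratios that include a low arm still depend on the scaling. A read was worth 0.47 in 0.4 ppm replicate 8 and 2.53 in 0.4 ppm replicate 5. The ratio of miR-10a-5p over miR-10b-5p averaged 11.18 ± 0.62 in air, 11.36 ± 0.68 at 0.4 ppm and 11.39 ± 0.46 at 0.8 ppm. The share of the miRNA table held by the 4 arms was 3.11% ± 2.00 in air, 5.03% ± 2.61 at 0.4 ppm and 3.41% ± 2.15 at 0.8 ppm. Of 12 two-sided exact permutation tests on these 4 measures, 0 passed, and the smallest unadjusted p was 0.145, for the share at 0.4 ppm against air, with an adjusted p of 0.98.

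**Figure D3:**
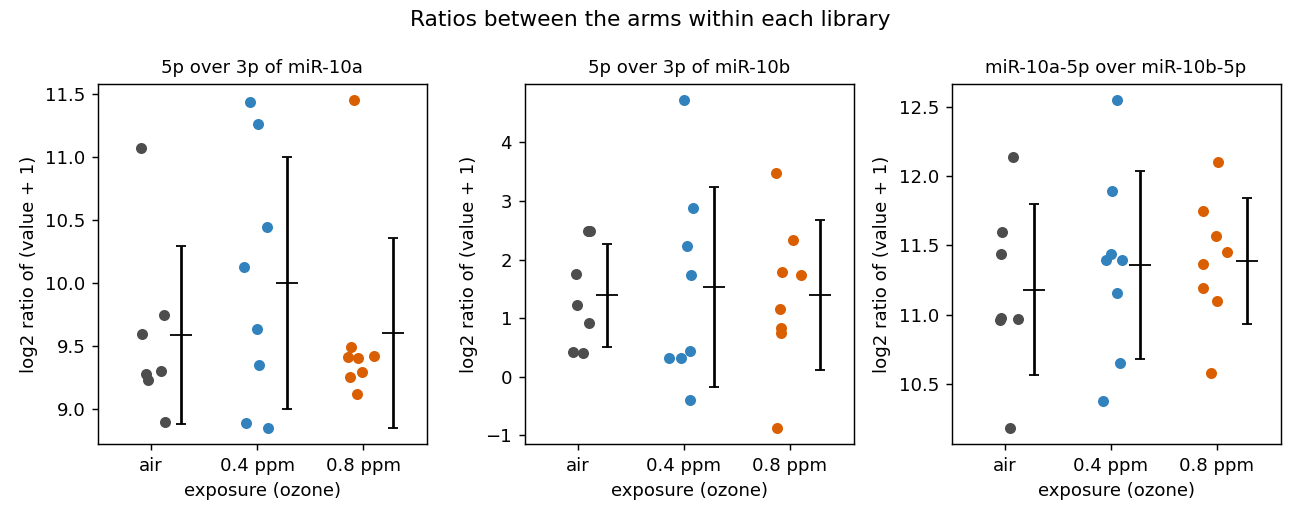
Log2 ratios of (value + 1) between arms in each library, by exposure, with the group mean and 1 SD; the 3 panels have their own axes. The 5p arm of miR-10a exceeds the 3p arm by 462-fold or more in every library, and in air and at 0.8 ppm 1 library lies above the others at 11.07 and 11.45.

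The arms were next compared with each other across animals, with the group means removed. Over 6 pairs, 1 passed: miR-10a-5p with miR-10b-5p, with Pearson r of 0.752 and Spearman rho of 0.584 over 23 libraries (permutation adjusted p of 0.00042 and 0.022). It was 0.783 within air, 0.681 within 0.4 ppm and 0.821 within 0.8 ppm, and 0.625 without the 2 libraries farthest from the median. Without the highest miR-10a-5p library of each group, chosen after the values were seen, r was 0.396 over 20 libraries with a permutation adjusted p of 0.253. Whether the pair passed thus depended on those 3 animals. Leaving out the highest values also narrows the range of miR-10a-5p, which can lower r by itself. The pair that passed joins the near-identical 5p arms, at 517789 reads over all libraries for miR-10a-5p and 182 for miR-10b-5p. The part of read assignment in its r was not tested. The 2 arms of miR-10a gave r of 0.159 (permutation adjusted p of 0.586) and those of miR-10b gave -0.0472 (permutation adjusted p of 0.83). Those pairs include an arm with few reads, which limits what they can show.

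Both 5p arms were then set against 15 measures of the same libraries, which made 30 pairs, and 15 pairs passed an adjusted permutation p of 0.05 by Pearson r. Of these, 2 belong to the leukocyte list, along which 4 libraries stood apart, and are treated separately below. All miRNA measures share the table and its scaling with miR-10, so a large share of one group leaves less for others. In these bulk libraries, fewer cells of a type and less RNA per cell cannot be told apart. With the read assignment between the near-identical 5p arms unknown, the miR-10b-5p pairs may not be independent of the miR-10a-5p pairs.

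The closest measure was the summed level of miR-99a, miR-99b, miR-100, miR-125a and miR-125b. It ran from 1094 to 2827 in air, from 1135 to 4687 at 0.4 ppm and from 1377 to 4948 at 0.8 ppm. Its r with miR-10a-5p was 0.846 and its rho 0.722 (permutation adjusted p of 0.00015 and 0.0036). Within groups it was 0.798 in air, 0.925 at 0.4 ppm and 0.802 at 0.8 ppm, and it was 0.727 without the 2 most distant libraries. Without the top library of each group r was 0.640 and rho 0.568 over 20 libraries (permutation adjusted p of 0.0228 and 0.0799). Singly, r with miR-10a-5p was 0.824 for miR-99b-5p, 0.804 for miR-125a-5p, 0.725 for miR-100-5p, 0.611 for miR-99a-5p and 0.327 for miR-125b-5p. Over the other 403 tested miRNAs 164 had a positive r, with a median of -0.109. For miR-10b-5p the summed level gave r of 0.739 and rho of 0.617 (permutation adjusted p of 0.0004 and 0.0117), and r of 0.469 without the top 3 libraries (permutation adjusted p of 0.162). The miRNAs that share a Hox cluster location gave a weaker relation as a sum. Along their sum, 2 libraries stood apart (0.4 ppm replicate 1 and 0.8 ppm replicate 7), and in the other 21 r with miR-10a-5p was 0.310 (permutation p of 0.172). One by one, 4 of 4 had a positive r with miR-10a-5p, with a median of 0.28. These were 0.470 for miR-196c-5p, 0.386 for miR-196b-5p, 0.174 for miR-196a-5p and 0.167 for miR-615. Within groups r of the sum was 0.574 in air, -0.284 at 0.4 ppm and 0.883 at 0.8 ppm.

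The germ cell group, miR-34b, miR-34c and miR-449, which marks meiotic and later male germ cells and is also known from ciliated epithelia, moved the other way. Of its 6 listed arms 5 were measured, miR-449c-5p was not in the table, and none of the 5 was at 0 in every library. Its sum ran from 206200 to 303990 in air, from 144830 to 267700 at 0.4 ppm and from 164630 to 349810 at 0.8 ppm, led by miR-34c-5p. It gave r of -0.716 and rho of -0.613 with miR-10a-5p (permutation adjusted p of 0.000712 and 0.0117). Within groups r was -0.891 in air, -0.485 at 0.4 ppm and -0.888 at 0.8 ppm. It was -0.616 without the 2 most distant libraries and -0.595 without the top 3 (permutation adjusted p of 0.032). By rank the relation was weaker, with rho of -0.456 without the top 3 (permutation adjusted p of 0.197). Without the 3 libraries beyond the largest gap along the sum, r was -0.591 and rho -0.334 (permutation p of 0.00661 and 0.15, not adjusted). All 5 measured arms had a negative r, from -0.863 for miR-34b-5p to -0.430 for miR-34b-3p. For miR-10b-5p r was -0.503 and rho -0.464 (permutation adjusted p of 0.0342 and 0.0563), and r was -0.368 without the 2 most distant libraries (permutation adjusted p of 0.188) and -0.215 without the top 3 (permutation adjusted p of 0.53).

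The extremes show the relation with the miR-34/miR-449 group, and the high extreme also that with miR-99b-5p. The library highest for miR-10a-5p, 0.4 ppm replicate 5, had 23.6% of its miRNA reads in the miR-34/miR-449 group and 3660 for miR-99b-5p. In the next, 0.8 ppm replicate 7, the share was 24.1% and miR-99b-5p 3655. Air replicate 6, the third, had 30.8% and 2139. The library lowest for miR-10a-5p, 0.8 ppm replicate 4, had 51.3% and 1195, and that miR-99b-5p value is the median over all 23 libraries.

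A measure from outside the miRNA table moved in the same sense as the germ cell group. The share of the tRNA table held by Leu-CAA rows gave r of -0.738 and rho of -0.698 with miR-10a-5p (permutation adjusted p of 0.0004 and 0.0036). Within groups it was -0.783 in air, -0.590 at 0.4 ppm and -0.857 at 0.8 ppm, and it was -0.684 without the 2 most distant libraries. Without the top 3, r was -0.645 and rho -0.608 (permutation adjusted p of 0.0228 and 0.0799). For miR-10b-5p r was -0.596 and rho -0.567 (permutation adjusted p of 0.00706 and 0.0212), and r was -0.368 without the top 3 (permutation adjusted p of 0.3). The tRNA and miRNA tables were scaled separately by the authors, and tRNA rows that are near-identical can share reads.

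Depth also moved with miR-10. Recovered miRNA reads gave r of -0.536 with miR-10a-5p (permutation adjusted p of 0.0211) and -0.472 with miR-10b-5p (permutation adjusted p of 0.0469), with rho of -0.500 and -0.474 (permutation adjusted p of 0.0383 and 0.0529). The 4 shallowest libraries lay beyond the largest gap along depth. In the other 19, r was -0.229 with miR-10a-5p and -0.403 with miR-10b-5p (permutation p of 0.353 and 0.0868, not adjusted). There rho was -0.0509 and -0.432 (permutation p of 0.837 and 0.066). Within groups r with miR-10a-5p was -0.382 in air, -0.585 at 0.4 ppm and -0.591 at 0.8 ppm. Without the top 3 libraries r with miR-10a-5p was -0.400 (permutation adjusted p of 0.276). With depth regressed out of both sides, a check added after the values were seen, r with miR-10a-5p was 0.884 for the miR-99, miR-100 and miR-125 sum, -0.566 for the miR-34/miR-449 sum and -0.617 for the Leu-CAA share, and each still passed. In the same check r with miR-10b-5p was 0.739 for the first sum, which still passed. It was -0.238 for the miR-34/miR-449 sum and -0.444 for the Leu-CAA share (permutation adjusted p of 0.402 and 0.0815), and neither passed. What sets the depth of a library is not recorded in the labels.

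**Figure D4:**
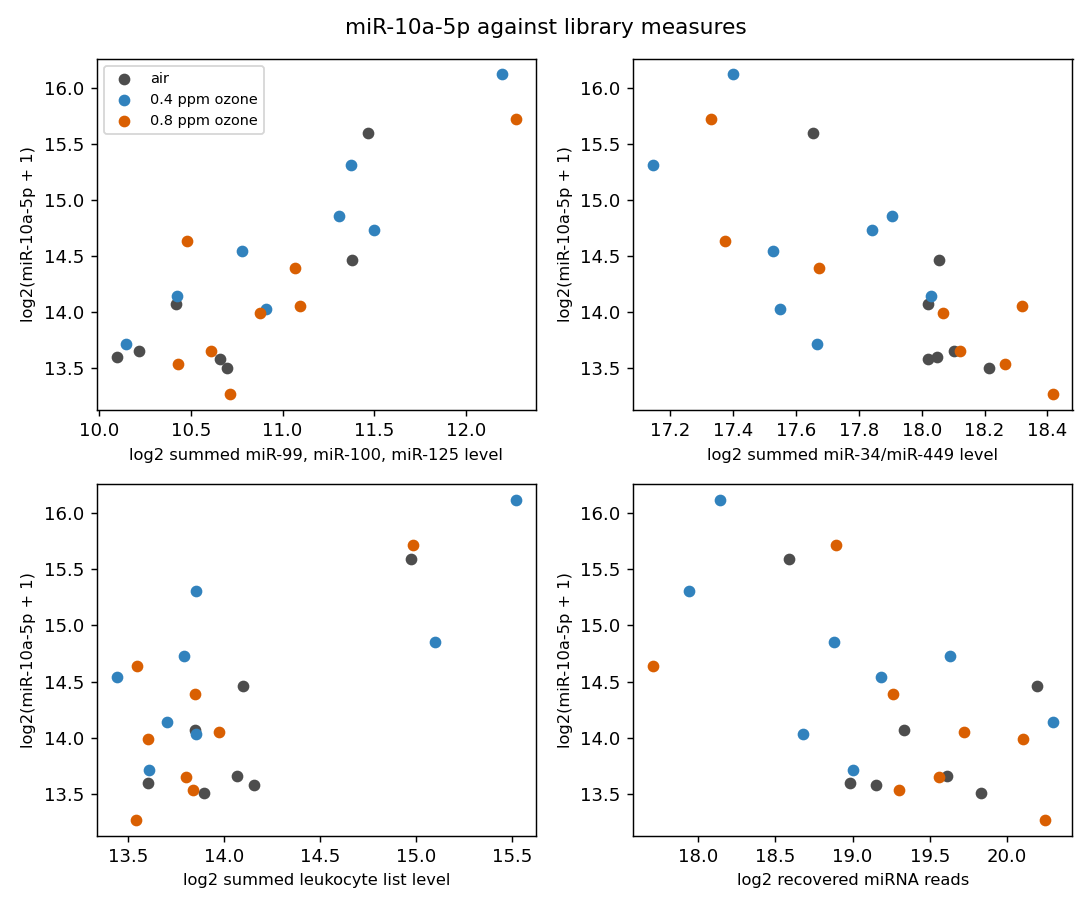
miR-10a-5p as log2(value + 1) against 4 measures of the same library, 1 point per rat, coloured by exposure, with no group means removed. It climbs with the miR-99, miR-100 and miR-125 sum and declines with the miR-34/miR-449 sum and with miRNA reads; along the leukocyte list 4 libraries lie apart at the right.

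Marker lists of other cells that a sperm preparation could hold were measured beside miR-10. For epithelium, all 8 of 8 miR-200 family arms were measured. Their sum ran from 4253 to 9676 in air, from 7728 to 15756 at 0.4 ppm and from 4764 to 15118 at 0.8 ppm. It gave r of 0.473 and rho of 0.592 with miR-10a-5p (permutation adjusted p of 0.0469 and 0.0133), and r of 0.0791 with miR-10b-5p. Within groups r with miR-10a-5p was 0.723 in air, 0.137 at 0.4 ppm and 0.527 at 0.8 ppm. For miR-10a-5p this was 0.441 without the 2 most distant libraries (permutation adjusted p of 0.097), 0.29 with depth removed and 0.703 without the top 3 libraries (permutation adjusted p of 0.0153). By rank without the top 3, rho was 0.659 (permutation adjusted p of 0.0615). Of the 8 arms 7 had a positive r, with a median of 0.261, led by miR-141-3p at 0.490.

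For smooth muscle and stroma, 5 of 7 arms were measured, and the muscle-specific miR-133a-3p and miR-133b-3p were not in the table. The sum ran from 9761 to 18681 in air, from 9624 to 30584 at 0.4 ppm and from 9832 to 77025 at 0.8 ppm. It was nearly all miR-143-3p, which smooth muscle and fibroblasts hold at high levels. It gave r of 0.722 with miR-10a-5p and 0.720 with miR-10b-5p (permutation adjusted p of 0.000712 and 0.0004), with rho of 0.459 and 0.674 (permutation adjusted p of 0.0563 and 0.007). Within groups r with miR-10a-5p was 0.892 in air, 0.615 at 0.4 ppm and 0.818 at 0.8 ppm. It was 0.508 without the 2 most distant libraries (permutation adjusted p of 0.0514), so whether it passed depended on those 2. Without the top 3 libraries r with miR-10a-5p and miR-10b-5p was 0.265 (permutation adjusted p of 0.478) and 0.542 (permutation adjusted p of 0.0665). The list did not move as 1: r with miR-10a-5p was 0.722 for miR-143-3p and 0.551 for miR-145-3p, but -0.458 for the striated muscle miR-1-3p and -0.305 for miR-206-3p.

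For leukocytes all 7 of 7 arms were measured. The sum ran from 12472 to 32158 in air, from 11126 to 47078 at 0.4 ppm and from 11920 to 32416 at 0.8 ppm, and it was nearly all miR-146b-5p. The 4 libraries that stood apart were air replicate 6, 0.4 ppm replicates 3 and 5, and 0.8 ppm replicate 7. In the other 19 libraries r was 0.173 with miR-10a-5p (permutation p of 0.477) and 0.451 with miR-10b-5p (permutation p of 0.0516). The list did not move as 1: r with miR-10a-5p over 23 libraries was 0.723 for miR-146b-5p, 0.326 for miR-150-5p and -0.061 for miR-155-5p. Over 23 libraries miR-142-3p averaged 3.49 and miR-223-3p 4.905, and r with miR-10a-5p was -0.502 and -0.270 for them, -0.614 for miR-142-5p and 0.839 for miR-146a-5p. Of the 7 arms 3 were positive.

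For let-7, whose family is high in most differentiated tissue, 9 of 9 guides were measured and all 9 had a positive r with miR-10a-5p. The sum ran from 38718 to 77614 in air, from 43282 to 88992 at 0.4 ppm and from 35283 to 87548 at 0.8 ppm. It gave r of 0.770 with miR-10a-5p (permutation adjusted p of 0.0004) and 0.654 with miR-10b-5p (permutation adjusted p of 0.00222), with rho of 0.544 and 0.510 (permutation adjusted p of 0.0264 and 0.0383). Within groups r with miR-10a-5p was 0.720 in air, 0.640 at 0.4 ppm and 0.915 at 0.8 ppm. Without the 2 most distant libraries it was 0.597, and 0.467 for miR-10b-5p (permutation adjusted p of 0.0769). Without the top 3 libraries, which were also the highest for let-7, r was 0.328 (permutation adjusted p of 0.394) and 0.172 (permutation adjusted p of 0.587). Erythroid markers (3 of 4 measured, miR-486 not in the table) gave r of -0.05 with miR-10a-5p and endothelial miR-126a arms (2 of 2) gave -0.137. Neither passed, nor did the X-linked miR-506 cluster of the testis (-0.353), the Gly-GCC tRNA share (0.410), the mitochondrial share (-0.186) or the epididymal lipocalin Lcn5 (0.258). Other scalings changed some of these calls: scaled to table totals or by quantile normalization, the X-linked cluster passed with miR-10a-5p, at r of -0.524 and -0.666, and the Gly-GCC share passed at 0.450 and 0.473. With miR-10b-5p, scaled to table totals, they passed at -0.497 and 0.479, and the Gly-GCC share passed at 0.465 with group means kept. The mitochondrial share passed with miR-10a-5p at -0.463 by quantile normalization, and with miR-10b-5p at 0.541 with depth removed. The X-linked value also depended on which libraries were kept: with miR-10a-5p r was -0.123 without the 2 most distant and -0.398 without the top 3. Without the 4 libraries beyond the largest gap along it (0.8 ppm replicates 3 and 4, 0.4 ppm replicates 3 and 5), r was -0.689 with miR-10a-5p and -0.564 with miR-10b-5p (permutation p of 0.00186 and 0.0123, not adjusted). The part of other cells in the spread of miR-10 was not tested.

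**Figure D5:**
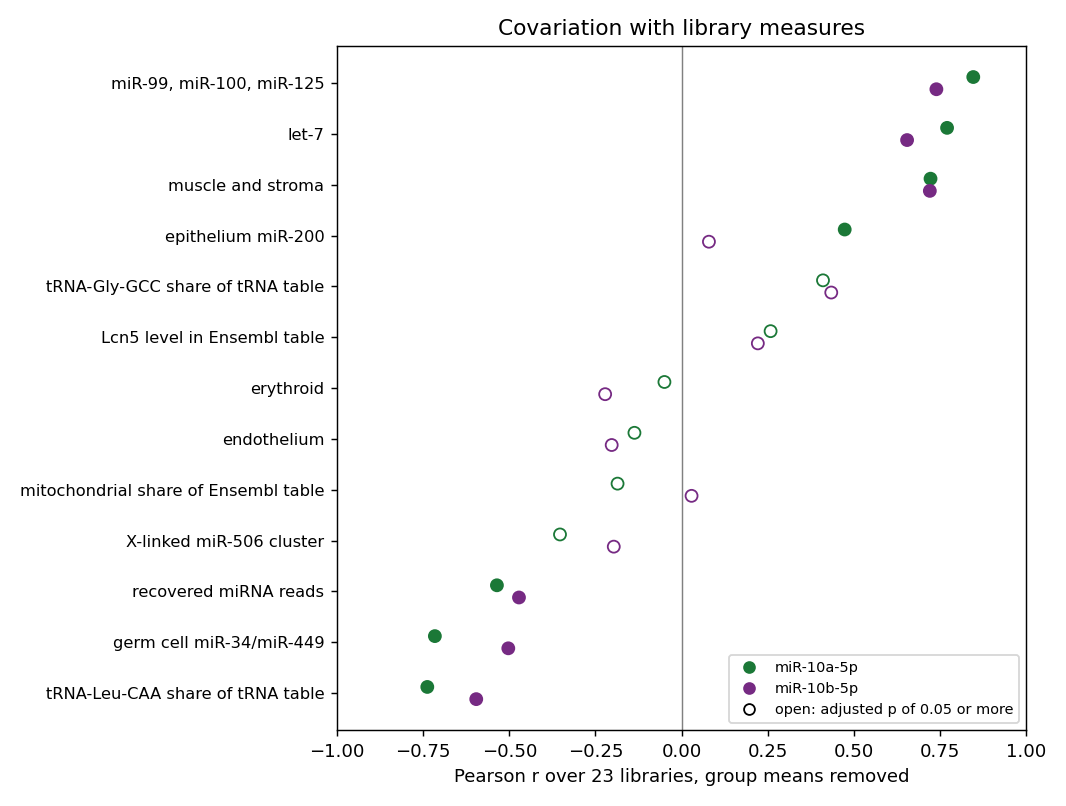
Pearson r of miR-10a-5p and miR-10b-5p with 13 library measures over 23 libraries, group means removed; filled points passed an adjusted permutation p of 0.05. The miR-99, miR-100 and miR-125 sum lies at the positive end (0.846 and 0.739), and the Leu-CAA tRNA share at the negative end (-0.738 and -0.596).

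Taking out the top library of each group thus left 4 of 15 measures past the threshold for miR-10a-5p by Pearson r, 2 positive and 2 negative. With all 23 libraries, 5 were positive and 3 negative. For miR-10b-5p the same removal left 1 of 15, a positive one, where 4 were positive and 3 negative. The 4 kept by miR-10a-5p were the miR-99, miR-100 and miR-125 sum, the miR-200 sum, the miR-34/miR-449 sum and the Leu-CAA share. The 1 kept by miR-10b-5p was the leukocyte list. By Spearman rho no pair passed after this removal. The smallest permutation adjusted p for rho was 0.0615, for miR-10a-5p with the miR-200 sum.

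The single miRNAs whose pattern was most like that of miR-10a-5p were sought among 122 with a mean of at least 100, over 23 libraries with group means removed. The highest r was 0.852 for miR-3553, then 0.848 for miR-423-5p, 0.839 for miR-146a-5p, 0.833 for miR-184 and 0.824 for miR-99b-5p. The lowest were -0.863 for miR-34b-5p, -0.812 for miR-425-5p and -0.779 for miR-19b-3p. For miR-10b-5p the highest were miR-184 at 0.796, miR-146b-5p at 0.792, let-7a-5p at 0.770 and miR-151-5p at 0.741, with miR-3596a holding the same values as let-7a-5p in every library, so the 2 rows share their reads. The lowest were miR-15b-5p at -0.776, miR-34b-5p at -0.689 and miR-872-5p at -0.661. miR-184 was thus near the top for both guides and miR-34b-5p near the bottom. It ran from 4360 to 21234 across libraries, and its lowest value was in the library highest for miR-10a-5p. These are descriptions of how levels ranked over the same libraries, with no test.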

How the data were processed

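Bowtie 1.0.0, Partek and build rn6 are named, with no roles or settings, in the submitters' processing notes. The values deposited by the authors are a scaled read signal. In the miRNA table all 249 to 298 low values checked in each library (100%) fell within 0.1 of a whole number of steps, 1 step being a read, which recovered 213839 to 1286612 reads a library, and the median ratio was 1.0094 in every library, as median-ratio scaling by the authors would give. The deposited tRNA and Ensembl signal was used only as shares or levels of a library, and the piRNA table was not used. No 2 libraries held identical values. Each sample-sheet number in the labels belongs to at most 2 libraries, and no run or date is given.

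The 4 members were found by name, and 407 of 425 miRNAs above 0 in at least 8 libraries were fitted with limma 3.58.1 (R 4.3.3) on log2(value + 1), trend and robust, over the 3 groups. Fold changes on this scale understate low miRNAs. Adjusted p is Benjamini-Hochberg over all tested miRNAs, two-sided, at 0.05. Alternatives were DESeq2 1.42.0 and edgeR 4.0.16 run on recovered reads, other pseudocounts, filters and scalings, library weights, depth or miR-34/miR-449 level as covariate, the compared groups alone and leaving out each library. Arm ratios had exact permutation tests. Correlations used log2 levels less group means, with two-sided permutation p from 100000 orders, of which 1e-05 is the smallest they can give. Named miRNAs were the members, their related lists, the leading member of other lists, and the 5 highest and 3 lowest r among miRNAs with a mean of at least 100. Other list members were named after their values were seen. The members and lists were chosen with earlier results of these data known.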

Additional observations from a re-analysis of the deposited data

Results flagged for a closer look

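Of 24 checks of a group for a sample far from the others, 8 found one. Chance alone gives about 1 in 20 when values are normally distributed. Levels and shares were checked unlogged and are skewed to high values, so the rate that chance gives here is not known. For miR-10a-5p the highest library stood apart in each group: 49511 in air replicate 6 (next 22565), 71043 in 0.4 ppm replicate 5 (next 40507) and 53831 in 0.8 ppm replicate 7 (next 25440). Air replicate 6 also stood apart for miR-10b-5p, at 23.7 against 10.3 for the next, and for the share of the miRNA table held by the 4 arms, at 7.41% against 3.64%. The log2 5p over 3p ratio of miR-10a stood apart at 11.07 in air replicate 6 (next 9.74) and at 11.45 in 0.8 ppm replicate 7 (next 9.49). miR-10b-3p stood apart at 9.58 in 0.8 ppm replicate 5 (next 2.80), the shallowest library, where it rests on 4 reads. The checks share libraries and are not independent.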

How the results depend on the processing

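No alternative moved a miR-10 arm past the threshold: of 414 values of the 4 arms in the 3 contrasts, 0 passed, 17 reversed in sign and the smallest adjusted p was 0.147. Over all miRNAs, library weights called 2 miRNAs at 0.4 ppm against air and 3 at 0.8 ppm against air in place of 0, and leaving out each library in turn called 0 each time. No paired analysis was possible because each rat has 1 library and the groups share no rat numbers.

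With the miR-34/miR-449 level as covariate the log2 fold changes at 0.4 ppm against air were -0.043 for miR-10a-5p, -0.094 for miR-10b-5p and -0.16 for miR-10b-3p; for miR-10a-5p it was -0.034 at 0.8 ppm against air and 0.0093 at 0.8 ppm against 0.4 ppm. At 0.8 ppm against air, library weights gave -0.020 for miR-10a-5p and -0.033 for miR-10a-3p, quantile normalization gave -0.074 for miR-10a-3p, and a pseudocount of 8 gave 0.016 for miR-10b-3p and -0.11 for the 5p over 3p ratio of miR-10b. At 0.8 ppm against 0.4 ppm that pseudocount gave -0.21 for miR-10a-5p over miR-10b-5p.

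Leaving out 1 library at a time, values at 0.8 ppm against air ran from -0.14 to 0.34 for miR-10a-5p, from -0.049 to 0.15 for miR-10a-3p, from -0.33 to 0.17 for miR-10b-5p, from -0.43 to 0.060 for miR-10b-3p, from -0.25 to 0.26 for the 5p over 3p ratio of miR-10a, from -0.28 to 0.34 for that of miR-10b, and from -0.34 to 1.02 percentage points for the share of the 4 arms. At 0.8 ppm against 0.4 ppm they ran from -0.25 to 0.013 for miR-10a-3p, from -0.43 to 0.32 for the miR-10b arm ratio and from -0.11 to 0.20 for miR-10a-5p over miR-10b-5p. At 0.4 ppm against air the miR-10b arm ratio ran from -0.31 to 0.42, miR-10a-3p from 0.057 to 0.32, miR-10b-5p from 0.24 to 0.73 and miR-10b-3p from 0.058 to 0.55, and between the doses miR-10b-5p ran from -0.77 to -0.36 and miR-10b-3p from -0.72 to -0.19. The cause of these changes was not tested.

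Without the highest miR-10a-5p library of each group, 5 of 30 pairs with library measures passed by Pearson r in place of 15, and 0 of 6 pairs of arms in place of 1. By Spearman rho none of these pairs passed. In the same check r with the other Hox-cluster sum was -0.118 for miR-10a-5p and -0.216 for miR-10b-5p. It was 0.162 for miR-10a-5p with erythroid markers and -0.023 for miR-10b-5p with the miR-200 sum. Correlations that did not pass over 23 libraries changed sign as follows. miR-10a-5p with erythroid markers was 0.044 scaled to table totals, 0.18 by quantile normalization and 0.12 without the 2 most distant libraries. With endothelium it was 0.095 by quantile normalization and 0.046 without those 2, and with the mitochondrial share 0.0051 without those 2 and 0.29 with depth removed. miR-10b-5p with the mitochondrial share was -0.034 with group means kept and -0.074 scaled to table totals, and with the miR-200 sum -0.037 by quantile normalization and -0.19 with depth removed. miR-10b-5p with miR-10b-3p was 0.010 with group means kept, 0.00024 scaled to table totals and 0.060 without the 2 libraries, and miR-10a-3p with miR-10b-3p was -0.15 without those 2. Depth limits miR-10b, at a median of 7 and 2 reads a library for its arms.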
